A study of Mus musculus with 36 samples.

Results

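Bulk RNA-seq libraries of the mouse retina were examined for 32 genes that mark the retinal interneurons, namely the bipolar, amacrine and horizontal cells. The genes were chosen by symbol as markers of these cell types, with earlier results of these data known. All 32 were found among the 55487 rows of the gene count table. Of them, 15 mark bipolar cells and 17 mark amacrine and horizontal cells. The study compared C57BL/6 mice aged 2 to 4 months that were naïve, had an optic nerve (ON) crush, or received an injection of microbeads into the anterior chamber of 1 eye, a model of glaucoma through raised intraocular pressure. Retina was taken from naïve mice, at 3 days (3 D) and 2 weeks (2 W) after crush, and at 3 D, 2 W and 6 W after bead injection. The unmyelinated optic nerve (UON) and the myelinated optic nerve (MON) were dissected from the same animals of each group. Each group of each tissue consisted of 1 library from 2 pooled female mice and 1 library from 2 pooled male mice, which gave 12 retina libraries and 24 nerve libraries. Retina libraries held 19931516 to 55990831 counts. A library therefore stands for its pool and its sex at once, the spread between the 2 animals of a pool is not visible, p-values measure the spread between pools only, and naïve animals were untouched in both eyes while injured animals were operated on 1 side. In whole retina a smaller number of cells of a type and less RNA per cell cannot be told apart.

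Bipolar cells carry signals from photoreceptors to retinal ganglion cells (RGC), horizontal cells modulate the photoreceptor synapse, and amacrine cells shape the output onto RGC with GABA, glycine, acetylcholine or dopamine. ON bipolar cells, which include the rod bipolar cells, detect glutamate through the receptor mGluR6, whose G protein cascade closes the cation channel TRPM1 in the dark. ON crush and raised pressure injure the axons of RGC, and interneurons have no axon in the optic nerve.

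Of the 32 genes, 20 stood above 10 FPKM (a fragment count scaled to transcript length and library size) as the mean of the naïve retina pools, 10 between 1 and 10 FPKM and 2 below 1 FPKM. The highest levels belonged to Pcp2, a modulator of the G protein Go in ON bipolar cells (583 and 562 FPKM in the naïve female and male pools), and Gng13, the gamma subunit of that cascade (314 and 298 FPKM). Otx2, a homeobox factor of bipolar cells and photoreceptors, followed at 82.8 and 87.0 FPKM, and Scgn, the calcium sensor secretagogin of cone bipolar cells, at 87.6 and 82.0 FPKM. Otx2 and Scgn are neighbours in that order whose ranges overlapped. The lowest levels were those of Onecut2, a factor of horizontal cells (0.758 and 1.02 FPKM), and Slc17a8, the vesicular glutamate transporter VGLUT3 of a small amacrine group (0.788 and 0.780 FPKM). Within amacrine genes, Gad1, which makes GABA, reached 62.5 and 63.7 FPKM, Chat, which makes acetylcholine in starburst cells, 4.74 and 3.31 FPKM, and Th, the rate-limiting enzyme of dopamine synthesis, 7.38 and 7.44 FPKM. Bipolar markers thus held most of the summed FPKM of the 32 genes in naïve retina, 1357 and 1293 against 264 and 261 for the amacrine and horizontal genes.

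**Figure D1:**
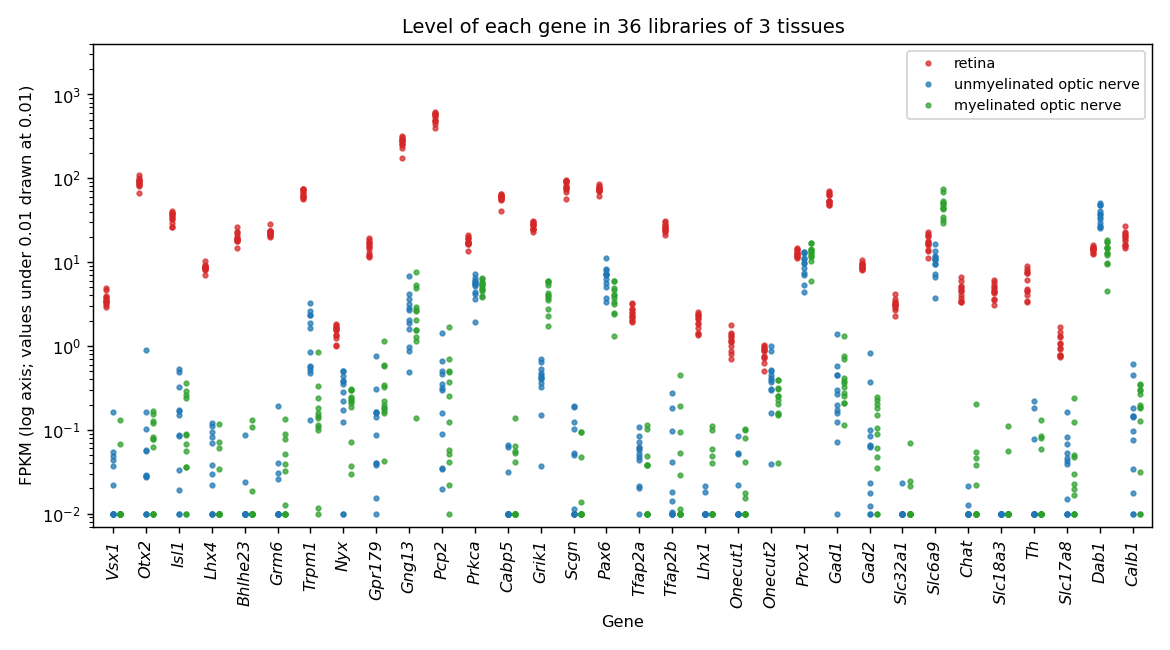
Each point is 1 library, with 12 libraries of retina (red), 12 of UON (blue) and 12 of MON (green) for each of the 32 genes; the vertical axis is FPKM on a log scale and values under 0.01 are drawn at 0.01. For 28 genes every retina point lies above every nerve point, where 8.49% of all genes with a value do so, and the 4 exceptions are Onecut2, Prox1, Slc6a9 and Dab1.

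The optic nerve holds no interneuron cell bodies and served as the background. For 28 of the 32 genes the lowest of 12 retina libraries lay above the highest of 24 nerve libraries in FPKM, beside 8.49% of the 49420 genes with an FPKM above 0 in any library. In the naïve libraries, 26 genes were called higher in retina than in UON, where 13.5% of all 23685 genes tested were called higher in retina and 31.7% were called in either direction. Against MON 27 genes were called higher, where the share of all genes was 10.9% in that direction and 27.6% in either. These calls used edgeR's quasi-likelihood test with Benjamini-Hochberg adjustment over all genes tested, and a gene counted as called where its adjusted p was below 0.05 while the log2 fold change exceeded 1 in size. The median log2 fold change of the 32 genes was 7.10 against UON and 6.02 against MON, beside 0.17 and -0.00 for all genes. Slc18a3, the vesicular acetylcholine transporter, was listed at 0 in all 12 UON libraries, and Slc32a1, the vesicular GABA transporter, in 11 of 12.

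A gene of each nerve region went the other way. Dab1, the reelin adaptor and a marker of AII amacrine cells, was called lower in retina than in UON, with 13.5 and 14.9 FPKM in naïve retina and 37.4 and 47.5 FPKM in naïve UON (log2 fold change -1.86 ± 0.24 SE, n = 2 pools per tissue, edgeR adjusted p = 0.00103), among 18.2% of all genes called lower. Its level in naïve MON, 14.8 and 12.7 FPKM, overlapped that of retina. Slc6a9, the glycine transporter GlyT1 of glycinergic amacrine cells and of glia, was called lower in retina than in MON, with 16.9 and 16.0 FPKM against 75.3 and 47.7 FPKM (log2 fold change -1.94 ± 0.30 SE, edgeR adjusted p = 0.00252), among 16.7% of all genes called lower. In every one of the 12 MON libraries Slc6a9 lay above all 12 retina libraries, from 29.0 to 75.3 FPKM against 11.3 to 23.0. Prox1, a homeobox factor of horizontal and AII amacrine cells, was called against neither nerve region, at 12.4 and 12.7 FPKM in naïve retina, 10.9 and 11.4 in UON and 13.3 and 5.93 in MON. The genes not called in either direction were Nyx, Onecut1, Onecut2, Prox1 and Slc6a9 against UON, and Onecut1, Onecut2, Prox1 and Dab1 against MON.

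Some bipolar and amacrine markers had a measurable nerve level below that of retina. Prkca, the protein kinase C alpha of rod bipolar cells, ranged from 1.92 to 7.15 FPKM in UON and from 3.80 to 6.43 in MON, against 13.7 to 20.9 in retina. Pax6, a factor of amacrine cells and RGC, ranged from 3.36 to 11.3 FPKM in UON and 1.33 to 5.96 in MON, against 62.3 to 85.4 in retina. Both were thus present throughout the nerve, without overlap with retina. Grik1, the kainate receptor subunit GluK1 of OFF bipolar cells, stood at 1.74 to 6.02 FPKM in MON and 0.037 to 0.699 in UON. Trpm1, which was first described in melanocytes, reached 2.37 and 3.27 FPKM in naïve UON and 0.336 and 0.115 in naïve MON. Of 8 pigment epithelium and melanocyte markers, summed levels ran from 3.59 to 28.6 FPKM in UON and from 2.15 to 10.8 in MON, where Tyr was at 0 in 7 UON libraries but Pmel (0.314 to 5.98 FPKM) and Dct (0.0752 to 11.1 FPKM) were above 0 in all 12. The sum of 18 photoreceptor markers ran from 19.7 to 207 FPKM in UON and 17.5 to 74.7 in MON, against 36960 to 45721 in retina. The part of either in the nerve levels was not tested.

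The start regions of Grm6 and Trpm1, the receptor and the channel of the mGluR6 cascade, are shown because these genes define the ON bipolar response. The windows run from 250 bases before to 50 bases after a RefSeq transcript start (build GRCm38.p6), and the capitals mark the letters TAATCC or their reverse complement GGATTA, the core bound by OTX2 and CRX.
Grm6, chr11:50850435-50850734, plus strand: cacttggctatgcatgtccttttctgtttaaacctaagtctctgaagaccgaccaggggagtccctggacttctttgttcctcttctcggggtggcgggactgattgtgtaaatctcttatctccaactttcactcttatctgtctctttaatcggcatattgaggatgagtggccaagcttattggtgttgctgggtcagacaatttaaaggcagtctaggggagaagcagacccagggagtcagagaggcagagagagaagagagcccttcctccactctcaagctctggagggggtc
Trpm1, chr7:64153585-64153884, plus strand: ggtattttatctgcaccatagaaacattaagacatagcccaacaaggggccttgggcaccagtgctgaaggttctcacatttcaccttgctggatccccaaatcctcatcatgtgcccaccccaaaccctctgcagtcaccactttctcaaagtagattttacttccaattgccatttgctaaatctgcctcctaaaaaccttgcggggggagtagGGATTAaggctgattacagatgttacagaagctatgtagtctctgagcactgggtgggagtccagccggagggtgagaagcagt
The Trpm1 window, at the first of its 2 starts, holds 1 match and the Grm6 window none. Windows were found for 29 of the 32 genes, without Grik1, Onecut2 and Calb1, and 5 of their 44 windows held a match (11.4%), in Otx2, Isl1, Trpm1, Cabp5 and Gad1, beside 7.06% of all 32851 windows. A match is a stretch of letters only, and no binding was measured.

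None of the 32 genes was called in any comparison of injured with naïve retina, by edgeR or by DESeq2. All 32 passed the filter on low counts in every comparison. At crush 3 D, edgeR called 0.0221% of all genes (DESeq2 called 136 genes) and 1 of the 32 genes had an unadjusted p under 0.05. At crush 2 W it called 0.313% (DESeq2, 346 genes), with 3 of the 32 under 0.05. Of all 22671 genes tested, 1437 had an unadjusted p under 0.05 at crush 3 D and 2037 at crush 2 W. After bead injection edgeR called 0.00429% of genes at 3 D, 0% at 2 W and 0.00858% at 6 W (DESeq2, 161, 99 and 114 genes). Of the 32 genes, 0, 4 and 2 had an unadjusted p under 0.05, beside 1418, 1465 and 1321 of all 23301 genes tested. The share of genes called was thus low throughout, and a count of 0 among the 32 genes lay near it.

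The median log2 fold change of the 32 genes against naïve was -0.11 at crush 3 D, -0.07 at crush 2 W, -0.09 at glaucoma 3 D, -0.24 at glaucoma 2 W and -0.02 at glaucoma 6 W, while that of all genes tested lay between -0.00 and 0.01. These medians depended on single pools: with 1 library left out they ran from -0.21 to -0.05 at crush 3 D, from -0.12 to 0.02 at crush 2 W, from -0.17 to 0.04 at glaucoma 3 D, from -0.24 to -0.18 at glaucoma 2 W and from -0.08 to 0.01 at glaucoma 6 W. Photoreceptor markers, of which edgeR called none, had medians of -0.13, 0.06, -0.10, -0.13 and -0.15 in the same order, with 14, 6, 14, 15 and 15 of 18 below 0, and their part in the interneuron values was not tested. The 5 comparisons share their naïve pools. The 95% interval of the fold change lay wholly within 1 on the log2 scale for 27 of the 32 genes at crush 3 D, 25 at crush 2 W, 29 at glaucoma 3 D, 27 at glaucoma 2 W and 29 at glaucoma 6 W. Of all genes tested, 47.9%, 45.7%, 42.8%, 42.5% and 42.9% had such an interval. Those shares include genes with fewer counts than any of the 32, and no background of matched level was used. The genes whose interval reached beyond that limit were mostly those of low level, namely Lhx1, Onecut1, Onecut2, Nyx, Chat, Slc18a3, Th and Slc17a8. For these the depth and the number of pools did not separate a change of the size that the calling rule asks for from no change.

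**Figure D2:**
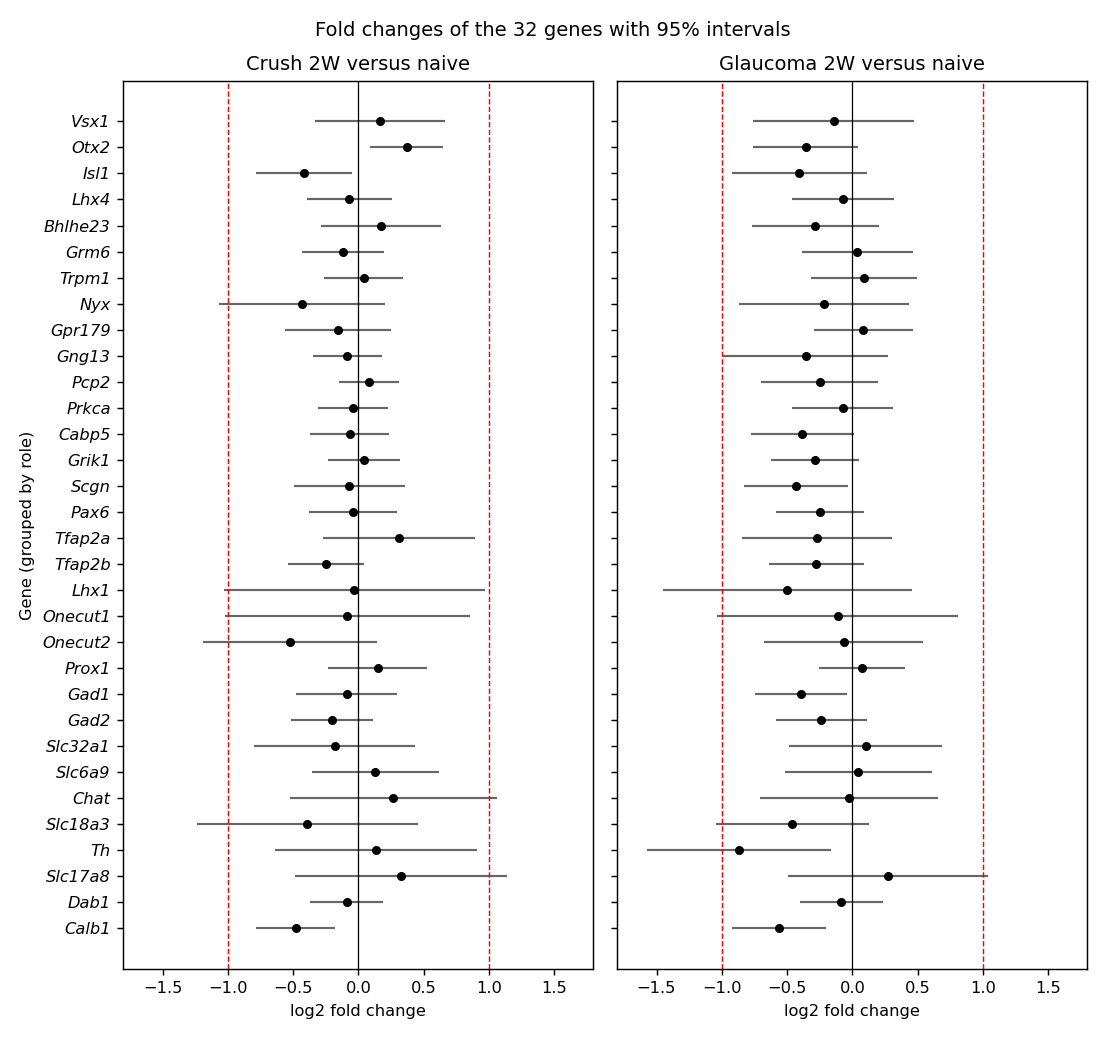
Points are the log2 fold changes of the 32 genes at 2 W after crush (left) and 2 W after bead injection (right) against naïve retina, with horizontal bars for the unadjusted 95% intervals of the edgeR fit and dashed lines at the limit of 1. After crush the points scatter around a median of -0.07. After bead injection 25 of 32 lie below 0, or 21 to 29 with 1 library left out, and Th lies lowest at -0.87. The median of all genes tested after bead injection was 0.01, and their share below 0 was not counted.

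Over the 12 retina libraries, the coefficient of variation of the 32 genes in CPM (counts scaled to a common library size with TMM factors) had a median of 16.3%, beside 29.9% for the 24693 genes tested. It was lowest for Dab1 (6.51%), Gad2 (7.53%) and Trpm1 (8.99%). Lhx1 (27.3%) and Th (35.6%) varied most, and the highest Th library was 2.69 times the lowest. The medians of 16.3% and 29.9% come from genes of unlike level. Each of the 32 genes held at least 101 counts in every retina library, while the filter for all genes had a count minimum of 10. No background of matched level was used. CPM below are given in the order female then male pool.

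Bipolar transcription factors are given first. Otx2 (chr14:48657677-48673819) measured 169 and 173 CPM in naïve retina, 172 and 173 at crush 3 D, 205 and 241 at crush 2 W, 152 and 181 at glaucoma 3 D, 153 and 115 at glaucoma 2 W, and 146 and 142 at glaucoma 6 W. Both crush 2 W pools lay above all other libraries, and both pools of glaucoma 2 W and 6 W lay below both naïve pools. The log2 fold change was 0.37 at crush 2 W (95% interval 0.09 to 0.65, unadjusted p = 0.0167, edgeR adjusted p = 0.393), which did not pass the test. In FPKM the 6 W glaucoma pools of Otx2 (85.7 and 88.8) overlapped the naïve pools. Isl1, a LIM homeobox factor of ON bipolar and starburst cells that RGC also express, measured 98.7 and 94.9 CPM in naïve retina, 66.2 and 91.1 at crush 3 D, 72.7 and 73.6 at crush 2 W, 64.2 and 94.4 at glaucoma 3 D, 82.0 and 64.3 at glaucoma 2 W, and 96.4 and 77.7 at glaucoma 6 W. Both pools at crush 3 D, crush 2 W, glaucoma 3 D and glaucoma 2 W lay below both naïve pools, and the log2 fold change at crush 2 W was -0.42 (95% interval -0.79 to -0.05, edgeR adjusted p = 0.478), or -0.26 without the female naïve pool. In FPKM the crush 2 W pools (37.8 and 29.5) overlapped the naïve pools (37.4 and 35.9). The RGC markers were at their lowest in the same crush 2 W libraries, and their part in the Isl1 value was not tested. Vsx1, Lhx4 and Bhlhe23, further transcription factors of bipolar cells, ranged from 12.9 to 21.8, from 39.3 to 52.6 and from 41.3 to 79.2 CPM.

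In the mGluR6 cascade, receptor and channel showed no separation of injured from naïve pools. Grm6, the glutamate receptor itself, measured 98.2 and 81.3 CPM in naïve retina, 85.4 and 84.0 at crush 3 D, 81.8 and 84.8 at crush 2 W, 79.4 and 94.9 at glaucoma 3 D, 82.6 and 102 at glaucoma 2 W, and 112 and 96.7 at glaucoma 6 W. Trpm1, the channel that it gates, measured 343 and 275 CPM in naïve retina, 326 and 293 at crush 3 D, 310 and 326 at crush 2 W, 272 and 303 at glaucoma 3 D, 308 and 346 at glaucoma 2 W, and 361 and 291 at glaucoma 6 W. No injured group had both pools above or both below the naïve pools for either gene, and the 95% intervals of all 5 fold changes lay between -0.46 and 0.65 on the log2 scale for Grm6 and between -0.49 and 0.49 for Trpm1. Nyx, which is needed to place the channel in the dendrite tips, and Gpr179, which tethers its RGS proteins, ranged from 6.04 to 10.7 and from 74.1 to 111 CPM. Gng13 and Pcp2 ranged from 134 to 244 and from 302 to 452 CPM, and both were lowest in the male pool of glaucoma 2 W. Both injured pools of Gng13 lay below both naïve pools at crush 3 D, glaucoma 3 D and glaucoma 6 W. Those of Pcp2 lay below at crush 3 D, glaucoma 2 W and glaucoma 6 W and above at crush 2 W. Nyx had both pools below at crush 2 W, and Gpr179 had both above at glaucoma 6 W. Over the 5 comparisons, 18.7% to 21.9% of all genes lay on a given side.

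Markers of single bipolar classes were measured next. Prkca measured 165 and 165 CPM in naïve retina, 153 and 147 at crush 3 D, 154 and 170 at crush 2 W, 146 and 145 at glaucoma 3 D, 132 and 183 at glaucoma 2 W, and 178 and 179 at glaucoma 6 W. No comparison with naïve moved it by more than 0.17 on the log2 scale. Scgn (chr13:23953456-23991214) measured 145 and 135 CPM in naïve retina, 124 and 147 at crush 3 D, 159 and 111 at crush 2 W, 144 and 158 at glaucoma 3 D, 121 and 87.0 at glaucoma 2 W, and 117 and 120 at glaucoma 6 W. Both pools of glaucoma 2 W and of glaucoma 6 W lay below both naïve pools, with a log2 fold change of -0.43 at 2 W (95% interval -0.83 to -0.03, unadjusted p = 0.038, edgeR adjusted p = 0.782), and without the male pool of that group it was -0.20. Cabp5, a calcium-binding protein of rod and cone bipolar cells, ranged from 79.9 to 132 CPM and Grik1 from 78.7 to 103 CPM.

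**Figure D3:**
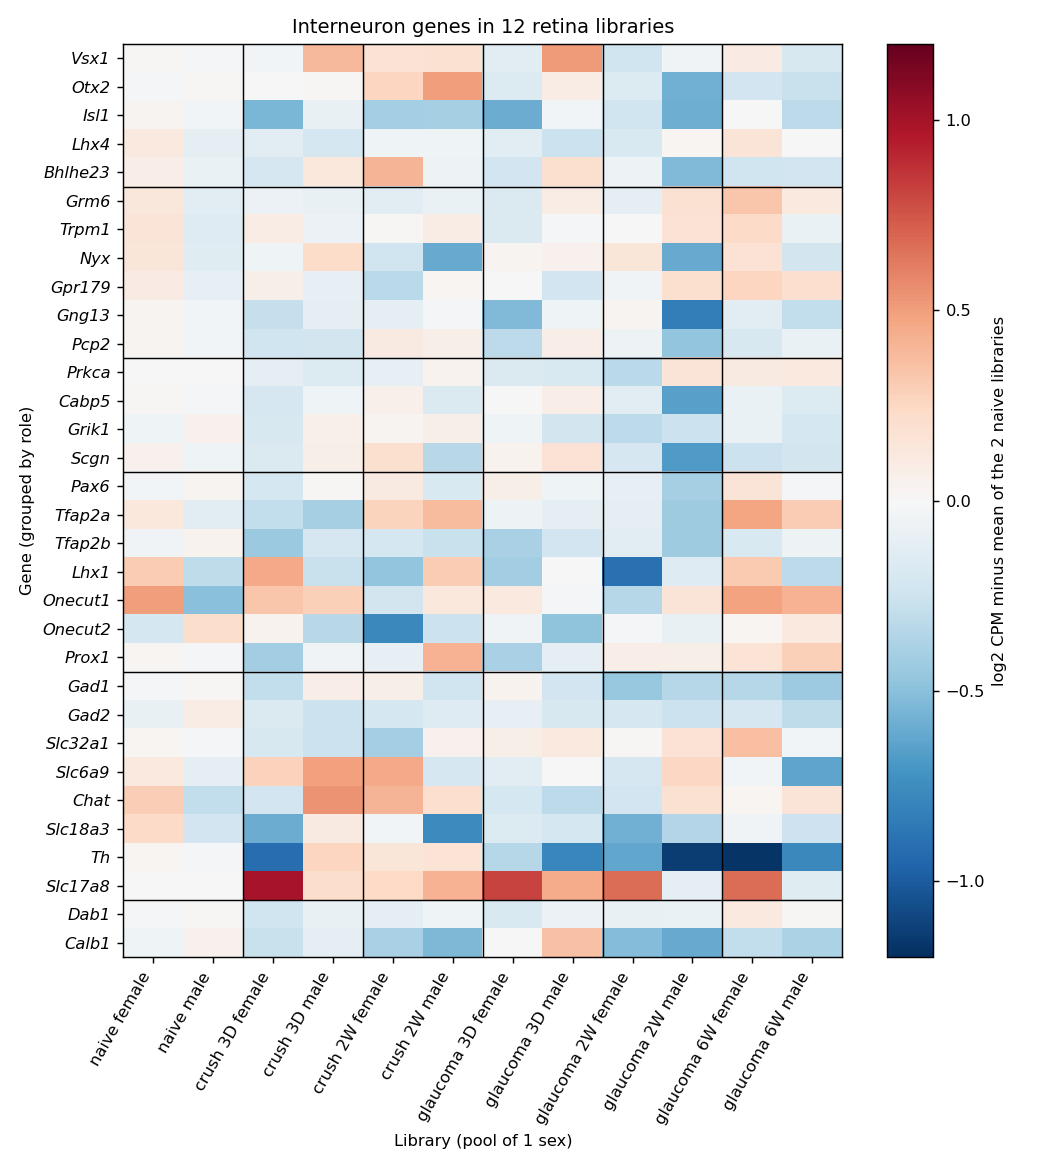
Rows are the 32 genes grouped by role (bipolar transcription factors, mGluR6 cascade, other bipolar markers, amacrine and horizontal transcription factors, transmitter genes, Dab1 and Calb1) and columns the 12 retina libraries; colour gives log2 CPM minus the mean of the 2 naïve libraries. The male glaucoma 2 W column holds the lowest value of the 12 libraries for 9 genes, and the strongest single values belong to Th and Slc17a8.

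Among the transcription factors of amacrine and horizontal cells, Pax6 measured 198 and 208 CPM in naïve retina, 175 and 205 at crush 3 D, 219 and 179 at crush 2 W, 213 and 196 at glaucoma 3 D, 189 and 154 at glaucoma 2 W, and 225 and 200 at glaucoma 6 W. Both glaucoma 2 W pools lay below both naïve pools, and the other groups overlapped them. Tfap2b, an AP-2 factor of amacrine cells, measured 110 and 117 CPM in naïve retina, 83.0 and 98.7 at crush 3 D, 97.8 and 94.1 at crush 2 W, 86.6 and 96.8 at glaucoma 3 D, 103 and 84.1 at glaucoma 2 W, and 99.7 and 108 at glaucoma 6 W. All 10 injured pools lay below both naïve pools in CPM, but in FPKM both glaucoma 6 W pools (30.3 and 30.6) lay above them (27.4 and 25.8). The log2 fold change at crush 3 D was -0.31 (95% interval -0.61 to -0.02, unadjusted p = 0.0381, edgeR adjusted p = 0.774). Tfap2a, its paralogue, had the lowest fold change of the 32 genes at crush 3 D (log2 -0.34, edgeR adjusted p = 0.878), or -0.21 without the female naïve pool. It read 9.63 and 8.03 CPM in naïve retina, 7.18 and 6.66 at crush 3 D, 10.6 and 11.4 at crush 2 W, 8.42 and 8.10 at glaucoma 3 D, 8.12 and 6.54 at glaucoma 2 W, and 12.2 and 10.9 at glaucoma 6 W. Its pools lay below both naïve pools at crush 3 D and above them at crush 2 W and glaucoma 6 W.

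The horizontal cell factors Lhx1, Onecut1 and Onecut2 were low, at 1.79, 1.07 and 0.89 FPKM as naïve means. Lhx1, which horizontal cells need to find their layer, measured 9.04 and 5.93 CPM in naïve retina, 10.1 and 6.10 at crush 3 D, 5.28 and 9.06 at crush 2 W, 5.50 and 7.33 at glaucoma 3 D, 3.94 and 6.59 at glaucoma 2 W, and 9.09 and 5.89 at glaucoma 6 W. The pools of a group differed widely, and no injured group had both pools on 1 side of the naïve pools. Onecut1, a sister factor of Onecut2, read 6.60 and 3.31 CPM in naïve retina, 5.88 and 5.69 at crush 3 D, 4.02 and 5.10 at crush 2 W, 5.06 and 4.64 at glaucoma 3 D, 3.69 and 5.20 at glaucoma 2 W, and 6.54 and 6.26 at glaucoma 6 W. The naïve pools were the highest and the lowest of the 12 libraries, and the log2 fold change of 0.40 at glaucoma 6 W was the highest of the 32 genes there (95% interval -0.51 to 1.32, edgeR adjusted p = 0.901). Onecut2 read 14.6 and 19.5 CPM in naïve retina, 17.4 and 13.4 at crush 3 D, 9.85 and 14.1 at crush 2 W, 16.4 and 12.1 at glaucoma 3 D, 16.6 and 15.9 at glaucoma 2 W, and 17.2 and 18.3 at glaucoma 6 W. Both crush 2 W pools lay below both naïve pools, the lowest fold change of that comparison (log2 -0.52, 95% interval -1.19 to 0.14, edgeR adjusted p = 0.658), which was -0.28 without the female and -0.80 without the male crush 2 W pool. The RGC markers were at their lowest in those libraries too, and the cell type behind the Onecut2 value was not tested. Prox1 ranged from 75.2 to 134 CPM.

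Genes for GABA and glycine spanned a wide range of levels. Gad1 (chr2:70553072-70602014) measured 239 and 243 CPM in naïve retina, 196 and 254 at crush 3 D, 253 and 204 at crush 2 W, 248 and 206 at glaucoma 3 D, 176 and 191 at glaucoma 2 W, and 190 and 178 at glaucoma 6 W. The glaucoma 2 W and 6 W pools lay below both naïve pools, with log2 fold changes of -0.39 (95% interval -0.74 to -0.04, edgeR adjusted p = 0.782) and -0.38 (-0.73 to -0.03, edgeR adjusted p = 0.865). Gad2, the second GABA-making enzyme, measured 60.3 and 68.5 CPM in naïve retina, 57.2 and 53.8 at crush 3 D, 55.4 and 57.6 at crush 2 W, 60.2 and 56.1 at glaucoma 3 D, 55.8 and 53.6 at glaucoma 2 W, and 56.0 and 52.2 at glaucoma 6 W. The injured pools lay below both naïve pools, though at glaucoma 3 D the female pool was level with the lower naïve pool, and the fold changes lay between -0.25 and -0.14 on the log2 scale. Slc6a9 measured 58.9 and 50.3 CPM in naïve retina, 66.1 and 76.8 at crush 3 D, 74.7 and 47.3 at crush 2 W, 49.7 and 54.5 at glaucoma 3 D, 47.3 and 64.8 at glaucoma 2 W, and 53.2 and 35.0 at glaucoma 6 W. No group stood apart from naïve retina in the same direction in both pools except crush 3 D, where both pools were above. Slc32a1 ranged from 7.60 to 12.9 CPM.

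Acetylcholine, dopamine and VGLUT3 mark small amacrine populations. Chat measured 15.2 and 10.1 CPM in naïve retina, 10.6 and 17.9 at crush 3 D, 16.5 and 14.2 at crush 2 W, 10.7 and 9.94 at glaucoma 3 D, 10.6 and 14.1 at glaucoma 2 W, and 12.6 and 13.8 at glaucoma 6 W. Every injured group overlapped the naïve pools. Slc18a3 lies inside the Chat locus on the same strand (chr14:32462438-32464850 within chr14:32408203-32465989), so reads may be divided between them in the authors' estimate, and it ranged from 8.76 to 17.4 CPM. Slc17a8 read 4.16 and 4.11 CPM in naïve retina, 8.20 and 4.80 at crush 3 D, 4.89 and 5.54 at crush 2 W, 7.25 and 5.65 at glaucoma 3 D, 6.58 and 3.85 at glaucoma 2 W, and 6.57 and 3.74 at glaucoma 6 W. Both pools of crush 3 D, crush 2 W and glaucoma 3 D lay above both naïve pools. Its fold change was the highest of the 32 genes at crush 3 D (log2 0.63, edgeR adjusted p = 0.849), glaucoma 3 D (log2 0.62, edgeR adjusted p = 0.864) and glaucoma 2 W (log2 0.27, edgeR adjusted p = 0.89). With 1 library left out these values ran from 0.16 to 1.04, from 0.33 to 0.96 and from -0.03 to 0.60.

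Th (chr7:142892752-142931128) showed the lowest fold change of the 32 genes at all 3 times after bead injection. It measured 16.0 and 15.4 CPM in naïve retina, 8.29 and 18.7 at crush 3 D, 17.3 and 17.6 at crush 2 W, 12.4 and 9.13 at glaucoma 3 D, 10.2 and 7.11 at glaucoma 2 W, and 6.93 and 9.19 at glaucoma 6 W. All 6 glaucoma pools lay below both naïve pools, while the crush 2 W pools lay above them and the crush 3 D pools on either side. The log2 fold change was -0.54 at glaucoma 3 D (95% interval -1.24 to 0.16), -0.87 at glaucoma 2 W (-1.57 to -0.17, unadjusted p = 0.0215) and -0.94 at glaucoma 6 W (-1.65 to -0.24, unadjusted p = 0.0155), with edgeR adjusted p of 0.879, 0.782 and 0.855. None passed the test, and the naïve pools are shared between the 3 values. With 1 library left out Th ran from -0.75 to -0.35 at 3 D, from -1.12 to -0.64 at 2 W and from -1.35 to -0.60 at 6 W. Slc18a2, the vesicular monoamine transporter that loads dopamine into vesicles, was looked up after these values were seen, and it measured 7.85 and 9.66 CPM in naïve retina, 10.8 and 8.92 at crush 3 D, 8.37 and 14.6 at crush 2 W, 15.7 and 13.97 at glaucoma 3 D, 12.6 and 10.8 at glaucoma 2 W, and 12.2 and 11.1 at glaucoma 6 W. All 6 glaucoma pools of Slc18a2 lay above both naïve pools. The share of all genes that do so was not counted. Ddc, from the same list of amacrine genes, was near the floor, at 0.970 and 0.607 CPM in naïve retina. It read 1.90 and 1.14 CPM at glaucoma 3 D, 0.492 and 0.284 at 2 W, and 0.365 and 1.48 at 6 W. Its pools thus lay above, below and on either side of the naïve pools. No link of either gene with the Th values was tested.

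Calb1, the calcium buffer calbindin of horizontal cells that some amacrine cells and RGC also hold, measured 100 and 108 CPM in naïve retina, 86.1 and 96.4 at crush 3 D, 79.1 and 71.3 at crush 2 W, 103 and 132 at glaucoma 3 D, 72.3 and 68.1 at glaucoma 2 W, and 84.5 and 79.7 at glaucoma 6 W. Both pools of crush 3 D, crush 2 W, glaucoma 2 W and glaucoma 6 W lay below both naïve pools, and the glaucoma 3 D male pool was the highest of all 12 libraries. The log2 fold change was -0.48 at crush 2 W (95% interval -0.78 to -0.18, unadjusted p = 0.00764, edgeR adjusted p = 0.278) and -0.56 at glaucoma 2 W (-0.92 to -0.20, unadjusted p = 0.00726, edgeR adjusted p = 0.749). Dab1 was the steadiest of the 32 genes, from 58.5 to 75.2 CPM.

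**Figure D4:**
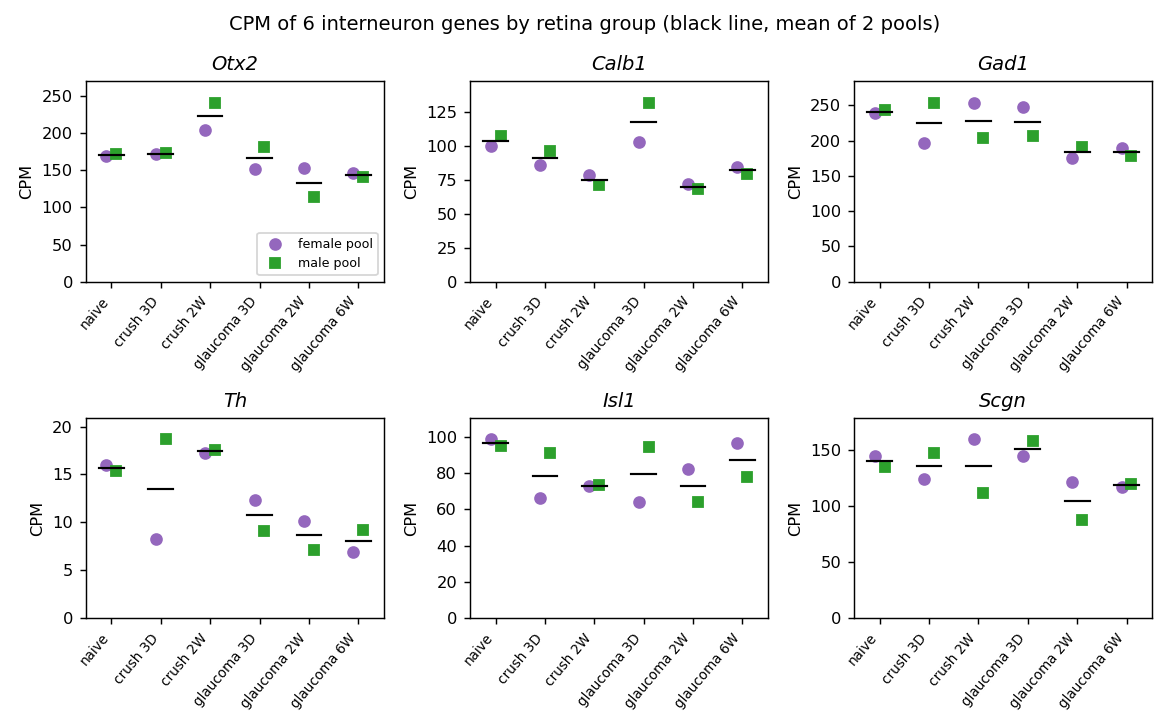
CPM of the 6 genes Otx2, Calb1, Gad1, Th, Isl1 and Scgn in each retina group, with a circle for the female pool, a square for the male pool and a line at their mean; axes start at 0. The genes were chosen from these same values, for an unadjusted edgeR p under 0.05 in a comparison with naïve retina. Tfap2b also met this rule and is not drawn. The 6 glaucoma pools of Th lie between 6.93 and 12.4 CPM, under both naïve pools. The crush 2 W pools of Otx2 (205 and 241 CPM) lie above all others.

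The position of both injured pools against both naïve pools was counted for all 32 genes, with CPM scaled within each comparison's own libraries, so that values that lie close together can change order. At crush 3 D, 12 genes (37.5%) had both injured pools below both naïve pools (19% of all genes tested did) and 3 had both above (19.8%). At crush 2 W the counts were 7 below (20.6%) and 6 above (20.7%), and at glaucoma 3 D 7 below (20.1%) and 4 above (18.7%). For the 32 genes these were 21.9% below in both comparisons, and 18.8% and 12.5% above, near or under the share of all genes. At glaucoma 2 W, 15 genes (46.9%) had both pools below (19.1%) and 1 above (20.6%), and at glaucoma 6 W 12 (37.5%) were below (21.3%) and 5 above (21.9%). The 15 genes of glaucoma 2 W came from both classes, 7 of them bipolar and 8 amacrine or horizontal, among them Otx2, Scgn, Pax6, Gad1, Th and Calb1.

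The male pool of glaucoma 2 W held the lowest CPM of the 12 libraries for 9 of the 32 genes, namely Otx2, Bhlhe23, Gng13, Pcp2, Cabp5, Scgn, Pax6, Tfap2a and Calb1, and its summed FPKM of the 15 bipolar genes was 946, or 0.714 of the naïve mean. In the female pool of the same group that sum was 1310, or 0.988 of the naïve mean. Most of this sum is Pcp2 and Gng13. The same pool held the lowest CPM for 5 of 18 photoreceptor markers (Pde6g, Sag, Rcvrn, Nr2e3 and Gngt1) and the lowest sum of 10 Müller glia markers, 1320 FPKM, while the female glaucoma 6 W pool was also lowest for 5 photoreceptor markers. Over all genes its median correlation with the other retina libraries, 0.9499, lay within the range of 0.941 to 0.956. The median log2 fold change of the 32 genes at glaucoma 2 W was -0.18 without the male pool. The female pool of glaucoma 6 W, which held the highest CPM for 8 of the 32 genes, was also high in lens crystallins. There 6 crystallins summed to 76.0 FPKM, and Cryaa read 30.8 FPKM against at most 0.301 FPKM in the other retina libraries. The same 6 genes summed to 13.0 to 80.5 FPKM in the UON libraries, and the source of the crystallin RNA was not tested. The part of these features in the values of single genes was not tested.

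The RGC markers give the scale of the injury in the same libraries. Of the 8 RGC markers that the study followed, whose choice is not independent of these samples, edgeR called 5 lower at crush 2 W (Rbpms, Rbpms2, Tubb3, Sncg and Pou4f1, log2 fold changes from -1.23 to -4.76), and the median of the 8 was -3.58. DESeq2 called 7. Their summed FPKM was 64.8 and 68.0 in the crush 2 W pools and 390 and 334 in naïve retina, or 0.179 and 0.188 of the naïve mean. The 15 bipolar genes in those pools stood at 0.989 and 1.02 of the naïve mean, and the 17 amacrine and horizontal genes at 1.02 and 0.932. After bead injection the RGC sum ranged from 0.456 to 0.901 of the naïve mean, the bipolar sum from 0.714 to 1.03 and the amacrine and horizontal sum from 0.872 to 1.06. The glaucoma 3 D female pool, with the lowest RGC sum after bead injection, had a bipolar sum of 0.846 and an amacrine and horizontal sum of 1.06. The sum of 14 microglia markers ranged from 1.31 to 3.54 times the naïve mean in the injured pools.

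**Figure D5:**
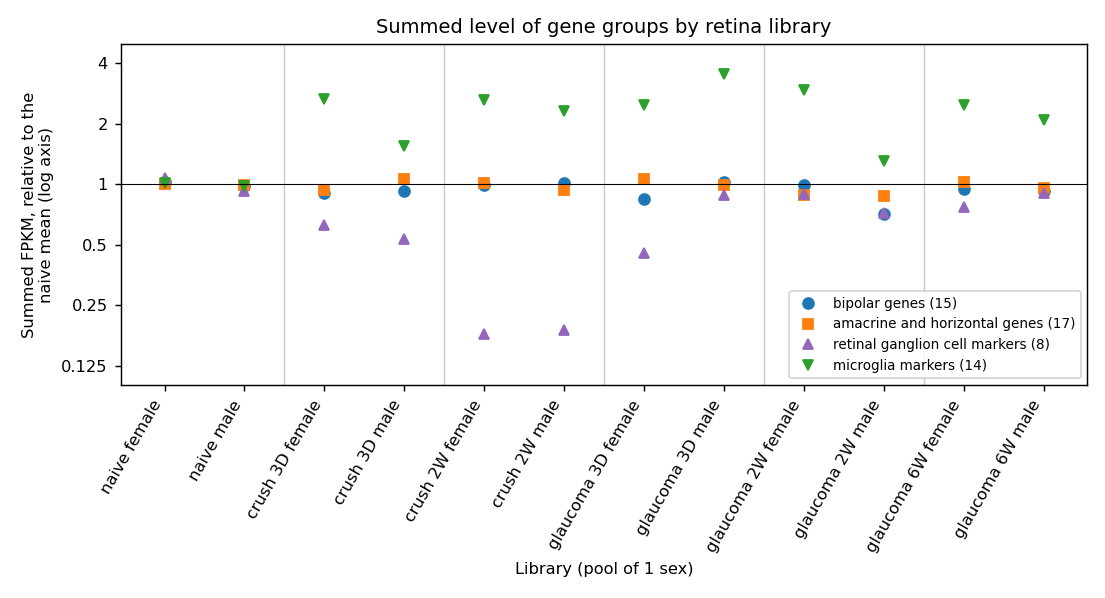
Summed FPKM of 4 groups of genes in each of the 12 retina libraries, divided by the mean of the 2 naïve libraries, on a log axis: 15 bipolar genes (circles), 17 amacrine and horizontal genes (squares), 8 RGC markers (upward triangles) and 14 microglia markers (downward triangles). Both crush 2 W pools show RGC sums of 0.179 and 0.188 with interneuron sums of 0.932 to 1.02, and the male glaucoma 2 W pool has the lowest bipolar sum, 0.714.

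Other genes of the same cells, taken from lists of known markers, were examined alongside. Of 8 further mGluR6 cascade genes, 13 further bipolar genes, 18 further amacrine genes and 2 further horizontal cell genes, edgeR called none in the 5 comparisons with naïve retina. Their medians at crush 2 W were -0.15, -0.19, -0.06 and 0.40 on the log2 scale, and at glaucoma 2 W 0.10, -0.41, -0.16 and 0.37. DESeq2 called 3 of these genes against naïve: Lrtm1 lower at crush 3 D (log2 fold change -1.10, DESeq2 adjusted p = 1.26e-05), C1ql1 lower at glaucoma 3 D (-1.02, DESeq2 adjusted p = 0.00296) and Sst, the neuropeptide somatostatin, higher at glaucoma 6 W (1.67, DESeq2 adjusted p = 0.013). Each had an edgeR adjusted p above the threshold, 0.277, 0.424 and 0.637. Between injured groups DESeq2 also called Vip, a neuropeptide, higher after crush than after bead injection at 2 W (log2 fold change 1.28 in edgeR), and Sst higher at glaucoma 6 W than at 3 D (2.21), while edgeR called neither (adjusted p 0.309 and 0.271).

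Injured groups were also compared with each other, and the sexes over all 12 retina libraries. None of the 32 genes was called by edgeR or DESeq2 in crush against glaucoma at 3 D (edgeR called 0.0081% of all genes), in crush against glaucoma at 2 W (0.113%), in crush 2 W against crush 3 D (0.0445%), in glaucoma 6 W against glaucoma 3 D (0.0121%) or in male against female retina (0.0324%). Unadjusted p under 0.05 were found for 1, 4, 3, 2 and 1 of the 32 genes, beside 1072, 2005, 1242, 2136 and 786 of all 24693 genes tested. DESeq2 called 36, 181, 134, 101 and 23 genes of all those it tested. For the sexes the 95% interval of all 32 genes lay within 1 on the log2 scale, from -0.86 to 0.57. At 2 W the largest difference between the injuries among the 32 genes was that of Th, 1.003 higher after crush on the log2 scale (95% interval 0.18 to 1.83, edgeR adjusted p = 0.558), which did not pass the test. Otx2 was 0.74 higher after crush at 2 W (95% interval 0.37 to 1.10), with an adjusted p of 0.22 by edgeR and 0.011 by DESeq2, and its size lay under the limit of 1. Without the female pool of glaucoma 2 W it was 1.005 with an edgeR adjusted p of 0.0476, which passed the calling rule, and without the male pool of that group it was 0.50.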

How the data were processed

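Retina, UON and MON libraries were made by the study with an ultra-low-input kit and read as pairs of 150 bases. Per the authors' methods and processing notes, reads were aligned with HISAT2 2.2.1 to GRCm38 and assembled and quantified with StringTie 1.3.0 against Gencode M25. The deposited gene table holds estimated counts from the authors' StringTie output, rounded here to whole numbers. The authors also deposited FPKM and TPM per gene and library, in which 25 values below 0 were set to 0. Strand use was not given in the sources used here, so reads of overlapping or antisense genes cannot be told apart. This touches 19 of the 32 genes, 9 of them with an overlap on the same strand. Otx2 and Gad1 each overlap an antisense gene, and Otx2 also overlaps Gm49154 on its own strand.

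Groups came from the labels. Counts were tested with edgeR 4.0.16 (R 4.3.3, quasi-likelihood F test, TMM scaling, filterByExpr at its count minimum of 10, total minimum 15), with group and sex as terms, in separate fits for the 6 crush and naïve, the 8 glaucoma and naïve, all 12 retina and the 6 naïve libraries, and p-values were adjusted over all genes tested. DESeq2 1.42.0 was the alternative, and other filters, scaling, models without sex and each library left out were tried. The same steps were tested on simulated data for the crush 2 W and glaucoma 2 W comparisons with naïve retina. There edgeR missed most genes given a log2 change of 1, so a gene that was not called is not thereby shown to be unchanged. CPM in the text use TMM factors over the 12 retina libraries. Values in every retina library are given for 12 leading markers of their class and for the gene with the highest and the lowest fold change in each comparison with naïve retina. Isl1, Scgn and Tfap2b were added after their values were seen, for an unadjusted p under 0.05. Members and lists were chosen with earlier results of these data known. A result on a withheld item is not reported here.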

Additional observations from a re-analysis of the deposited data

Results flagged for a closer look

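Otx2 at 2 W differed between the injuries by 0.74 on the log2 scale (higher after crush, both crush pools above both glaucoma pools), and drew attention because DESeq2 gave an adjusted p of 0.011 for that difference while edgeR gave 0.22. The 2 glaucoma pools differ from each other, at 153 and 115 CPM, and the crush pools measured 205 and 241 CPM. Otx2 overlaps the antisense gene Otx2os1 and, on its own strand, the gene Gm49154, and the part of these overlaps was not tested.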

How the results depend on the processing

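Across 190 alternatives to the 12 counts of called genes among the 32, 189 left the retina count at 0 or, against the nerve, gave 24 to 29 genes. The exception was crush against glaucoma at 2 W, where leaving out 1 library gave 0 to 1 genes, the 1 being Otx2, whose log2 fold change then ran from 0.50 to 1.005. Of 266 alternatives for named fold changes, 2 reversed direction, both on leaving out a naïve pool: Slc17a8 at glaucoma 2 W (-0.035 without the female naïve pool, up to 0.60 on the log2 scale over the libraries left out) and Onecut1 at glaucoma 6 W (-0.084 without the male naïve pool, up to 1.004). The median of the 32 genes ran, with 1 library left out, from -0.21 to -0.05 at crush 3 D, -0.12 to 0.02 at crush 2 W, -0.17 to 0.04 at glaucoma 3 D, -0.24 to -0.18 at glaucoma 2 W and -0.08 to 0.01 at glaucoma 6 W, so its sign turned at crush 2 W, glaucoma 3 D and glaucoma 6 W. The cause was not tested. Over all genes the counts of calls depended on the tool: against naïve, edgeR called 5, 71, 1, 0 and 2 genes (crush 3 D, crush 2 W, glaucoma 3 D, 2 W and 6 W), DESeq2 136, 346, 161, 99 and 114, edgeR with no filter on low counts 53, 174, 15, 17 and 21, and edgeR without the sex term 12, 103, 2, 1 and 2. With the other retina libraries in the fit they were 0, 61, 2, 0 and 2. Between injured groups and sexes edgeR called 2, 28, 11, 3 and 8 genes, and with no filter 5, 86, 46, 15 and 18. The labels carry no replicate numbers. Per the study's methods all 3 tissues were dissected from each animal and RNA was pooled by sex. The pools of 1 sex thus share their mice, and in the naïve fit the sex term also pairs the tissues. Without that term the counts called were the same, 27 against UON and 28 against MON. With 2 pools a group, genes with few counts (101 to 382 in a library for Slc17a8, Onecut1 and Lhx1) had wide intervals.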
